A study of Homo sapiens with 18 samples.

Results

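Control HAP1 cells were sequenced in 2 sets, A and B, of 3 samples each, and the comparison of set B with set A shows which genes differed with no gene knocked out. These 6 samples, chosen by their labels as wild type replicates of series A or B, are 6 of the 18 samples of the study. HAP1 is a near-haploid human cell line derived from a chronic myeloid leukaemia line, and all cells were grown in IMDM with foetal calf serum and antibiotics. The other 12 samples were 3 each of cells without WAPL (ΔWAPL clones 3.3 and 1.14), without SCC4 (ΔSCC4) and without both (ΔWAPL/ΔSCC4). In ΔWAPL cells a blasticidin cassette was inserted into WAPL, in ΔSCC4 cells a puromycin cassette was inserted into SCC4 (gene symbol MAU2), and the ΔWAPL/ΔSCC4 cells were derived from ΔWAPL clone 3.3. Each knockout group is 1 clone, and the control cells carry neither cassette. The labels do not say what separates set A from set B, so passage, culture, library preparation and sequencing run cannot be told apart. Nothing in the labels says that the samples of a set came from separate cultures, and p-values then measure only the spread between these samples, which may be technical.

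HAP1 cells grow attached and have lost most traits of blood cells, and they are widely used for gene knockouts because a single hit removes the only copy of a gene. Each knockout line in such a study is grown from a single cell and is read against wild type cells of the same line. Populations of a cell line that are grown apart are known to drift in gene expression, and the genes that differ between wild type populations are the background against which such clones are read.

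Gene counts summed to between 15647569 and 17008191 reads per sample in set A and between 14559326 and 17722952 in set B. Reads outside genes made up 4.39 to 5.12% of the alignments in set A and 4.04 to 4.78% in set B. The biological coefficient of variation was 15.3% in the fit of the 6 controls and 9.32% in the fit of the 6 ΔWAPL samples. Within single groups it was 16.2% in set A, 14.6% in set B, 12.5% in clone 3.3 and 4.27% in clone 1.14. In ΔSCC4 and ΔWAPL/ΔSCC4 cells it was 14.3% and 10.4%. The low value in the fit of the ΔWAPL samples was thus mostly that of clone 1.14. Differences between samples of the same set followed the GC content of the genes, with a Spearman's rho across 12369 genes of 0.684 between replicates 1 and 2 of set A and 0.547 between replicates 1 and 3 of set B. The difference between the sets did not follow it in the same way (GC content, rho of -0.013, and exon length, rho of 0.144). Genes are not independent replicates, so these correlations are descriptions. WAPL and MAU2, the genes knocked out elsewhere in the study, were measured in both sets at levels that did not pass the test. WAPL was at 78.1, 98.4 and 121 CPM (TMM-normalized reads per 1000000 reads on genes) in set A and at 127, 104 and 131 CPM in set B. MAU2 was at 72.7, 62.6 and 61.3 CPM in set A and at 61.3, 63.5 and 56.7 CPM in set B. Their log2 fold changes were 0.27 (SE 0.17, adjusted p = 0.548, edgeR) and -0.13 (SE 0.13, adjusted p = 0.697, edgeR), and the samples of both sets overlapped. WAPL passed in 1 alternative, the fit with the GC slope of each sample as a covariate (adjusted p = 0.0497, edgeR).

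Of 12509 genes tested, 80 passed an adjusted p of 0.05 in edgeR's quasi-likelihood test, 0.64% of all. Of these, 70 were higher in set B (0.56% of the genes tested) and 10 were lower (0.0799%), so that 87.5% of the genes past the threshold were higher in set B. The rises ranged from 0.76 to 3.19 on the log2 scale with a median of 1.34, and the falls from -0.67 to -2.05 with a median of -1.56. Most genes differed little, with a median log2 fold change of -0.02 over all genes tested and quartiles of -0.16 and 0.15. The genes that rose were mostly genes of low expression. Their median level was 0.354 CPM per kilobase of exon in set A and 0.909 in set B, beside 6.17 and 6.23 for all genes tested, and 67 of the 69 with a known length lay below the all-gene median in set A. All 80 genes had no overlap between the 3 samples of each set, which held for 19.4% of all genes tested. RNA of whole populations was measured, so fewer cells that express a gene and less RNA per cell cannot be told apart.

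**Figure D1:**
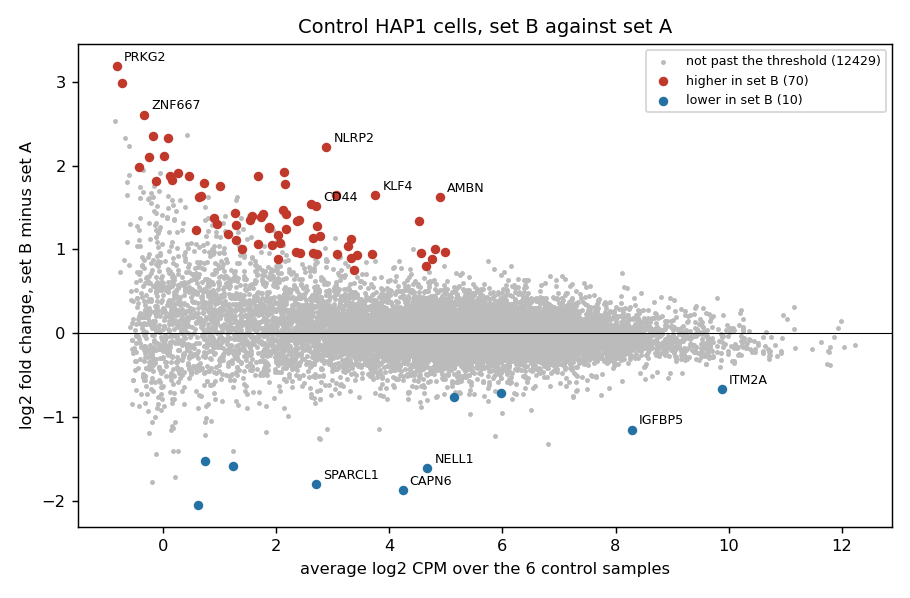
The log2 fold change of set B over set A (vertical axis) for each of the 12509 genes tested, against the average log2 CPM of the 6 control samples (horizontal axis). Red points are the 70 genes higher in set B and blue points the 10 genes lower in set B at an adjusted p of 0.05 in edgeR. The red points lie mostly at the low end of the expression range, while the falls of IGFBP5 and ITM2A lie at the high end.

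The number of genes rested on single samples. No gene past the threshold stayed past it in all 6 fits that left out a control sample. All 80 kept their sign in the 25 other control fits that tested them. Those fits reuse samples in which the sets did not overlap for these genes, so nothing is read from the kept sign. Without replicate 2 of set A no gene passed in edgeR (857 genes at an unadjusted p under 0.05, smallest adjusted p = 0.0548) and 52 passed in DESeq2, without replicate 1 of set A 9 passed, and without replicate 1 of set B 22 passed. The 8 genes that passed in 5 of the 6 fits were NLRP2, KLF4, AMBN, TKTL1, ALDH1A2, CAPN6, NELL1 and IGFBP5, and 10 genes passed in none of them, among them IGF2 and DNMT3L. DESeq2, the tool of the authors, called 168 genes, of which 77.4% were higher in set B. One fit over all 18 samples called 408 with 66.4% higher, and a fit with the GC slope of each sample as a covariate called 1335 with 55.2% higher.

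The promoters of 4 genes are shown to compare genes that rose and fell. KLF4 and ZNF667, which rose, have promoters rich in CG, AMBN rose and has few CG, and IGFBP5 fell. Each line holds the 250 bases before the RefSeq transcription start in GRCh38.p14, read 5′ to 3′ along the gene, with each CG in capitals. KLF4 lies on the minus strand at chr9:107489770-107490019 and holds 25 CG. ZNF667 lies on the minus strand at chr19:56477346-56477595 and holds 35. AMBN lies on the plus strand at chr4:70592006-70592255 and holds 4. IGFBP5 lies on the minus strand at chr2:216695550-216695799 and holds 8.
KLF4: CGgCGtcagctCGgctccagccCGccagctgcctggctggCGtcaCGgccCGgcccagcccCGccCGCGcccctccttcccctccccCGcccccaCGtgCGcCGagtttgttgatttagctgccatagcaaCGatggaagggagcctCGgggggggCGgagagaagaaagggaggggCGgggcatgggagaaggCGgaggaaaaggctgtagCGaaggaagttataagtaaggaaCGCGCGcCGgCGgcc
ZNF667: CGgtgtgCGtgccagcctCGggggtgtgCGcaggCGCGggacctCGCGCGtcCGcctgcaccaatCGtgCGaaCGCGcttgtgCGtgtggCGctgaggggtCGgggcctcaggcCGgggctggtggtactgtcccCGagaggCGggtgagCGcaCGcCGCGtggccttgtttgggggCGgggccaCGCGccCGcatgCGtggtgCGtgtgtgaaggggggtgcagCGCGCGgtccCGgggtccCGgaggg
AMBN: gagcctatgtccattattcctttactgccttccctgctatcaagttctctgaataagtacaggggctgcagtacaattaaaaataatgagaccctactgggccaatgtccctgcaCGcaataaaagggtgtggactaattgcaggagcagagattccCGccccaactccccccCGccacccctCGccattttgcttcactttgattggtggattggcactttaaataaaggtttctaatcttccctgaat
IGFBP5: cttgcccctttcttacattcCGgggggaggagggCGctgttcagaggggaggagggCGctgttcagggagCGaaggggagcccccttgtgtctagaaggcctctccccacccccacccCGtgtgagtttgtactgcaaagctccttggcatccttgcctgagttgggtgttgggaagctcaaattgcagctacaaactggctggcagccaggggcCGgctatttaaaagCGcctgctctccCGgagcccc
In mammals, cytosines in CG are the main site of DNA methylation, and methylated CG-rich promoters are usually silent. Methylation was not measured here. Counted over windows of 300 bases (250 before and 50 after the start), CG had a median of 21.5 in the 54 of 70 risen genes that matched a RefSeq window, of 7 in 8 of the 10 fallen genes and of 27 in 10075 of all genes tested. CG is its own reverse complement, so both strands hold the same count. Windows with at least 15 CG made up 77.8% of those of risen genes, 12.5% of those of fallen genes and 84.7% of all. The risen genes were thus close to all genes, and the fallen genes were poorer in CG, with only 8 windows.

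The rule named 12 genes that rose. NLRP2, a NOD-like receptor family member known for its role in oocytes and early embryos, was at 3.19, 2.1 and 2.44 CPM in set A and at 13.2, 12.7 and 10.5 CPM in set B. Its log2 fold change of 2.22 (SE 0.19, adjusted p = 0.00183, edgeR) was the largest of the genes whose average log2 CPM reached 1. KLF4, a transcription factor that helps to maintain and induce pluripotency, was at 6.05, 6.84 and 6.61 CPM in set A and at 21, 17.8 and 22.8 CPM in set B. It rose by 1.64 on the log2 scale (SE 0.14, adjusted p = 0.00183, edgeR). In both genes every set B sample was more than 2-fold above every set A sample. TIAM1, an exchange factor that activates the small GTPase RAC1, was at 1.95, 1.66 and 1.73 CPM in set A and at 6.56, 5.71 and 8.21 CPM in set B, a log2 fold change of 1.93 (SE 0.19, adjusted p = 0.00378, edgeR). HHLA2, a B7 family ligand of T cell receptors, was at 1.63, 1.05 and 1.31 CPM in set A and at 5.81, 4.3 and 4.67 CPM in set B. Its log2 fold change was 1.87 (SE 0.22, adjusted p = 0.00981, edgeR). Raw counts of these genes in set A were low, at 27 to 30 reads for TIAM1 and 17 to 25 for HHLA2.

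The next 5 genes encode proteins of the cell surface or of the matrix around cells. AMBN, which encodes the enamel matrix protein ameloblastin, was at 16.5, 13.7 and 13.6 CPM in set A and at 44, 47 and 44.8 CPM in set B. The samples of each set lay close together, and the log2 fold change was 1.62 (SE 0.14, adjusted p = 0.00183, edgeR). CD44, the main receptor of hyaluronan, was at 2.93, 2.96 and 4.11 CPM in set A and at 10.2, 9.34 and 9.45 CPM in set B, a log2 fold change of 1.52 (SE 0.17, adjusted p = 0.00676, edgeR). VCAN encodes versican, a large proteoglycan that binds hyaluronan. It was at 2.73, 2.34 and 4.23 CPM in set A and at 9.77, 6.38 and 11.1 CPM in set B, with more spread within set B than AMBN or CD44 and a log2 fold change of 1.54 (SE 0.26, adjusted p = 0.0376, edgeR). FOLH1, a membrane enzyme that releases glutamate from folates and peptides, rose from 2.34, 1.91 and 2.5 CPM to 5.19, 6.99 and 6.64 CPM (log2 fold change 1.46, SE 0.19, adjusted p = 0.0129, edgeR). FOLH1 has a near-identical copy in the genome, and reads that fit more than 1 place were left out of the counts, so its level is uncertain. CPM (the gene of carboxypeptidase M, a membrane peptidase) had a mean level of 1.23 ± 0.34 in set A and 3.37 ± 0.65 in set B (SD, n = 3), with a log2 fold change of 1.43 (SE 0.25, adjusted p = 0.0398, edgeR).

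The other risen genes named by the rule were TKTL1, FSTL4 and ZNF486. TKTL1, a transketolase-like protein of the pentose phosphate pathway, was at 4.62, 3.82 and 3.46 CPM in set A and at 12.4, 14.3 and 11 CPM in set B. FSTL4, a secreted follistatin-like protein, was at 0.72, 0.8 and 1.07 CPM in set A and at 2.67, 2.96 and 3.26 CPM in set B. Their log2 fold changes were 1.65 (SE 0.17, adjusted p = 0.0061, edgeR) for TKTL1 and 1.76 (SE 0.22, adjusted p = 0.0129, edgeR) for FSTL4. ZNF486, a KRAB zinc finger gene of chromosome 19, rose by 1.78 (SE 0.21, adjusted p = 0.01, edgeR) and is described with its neighbours.

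**Figure D2:**
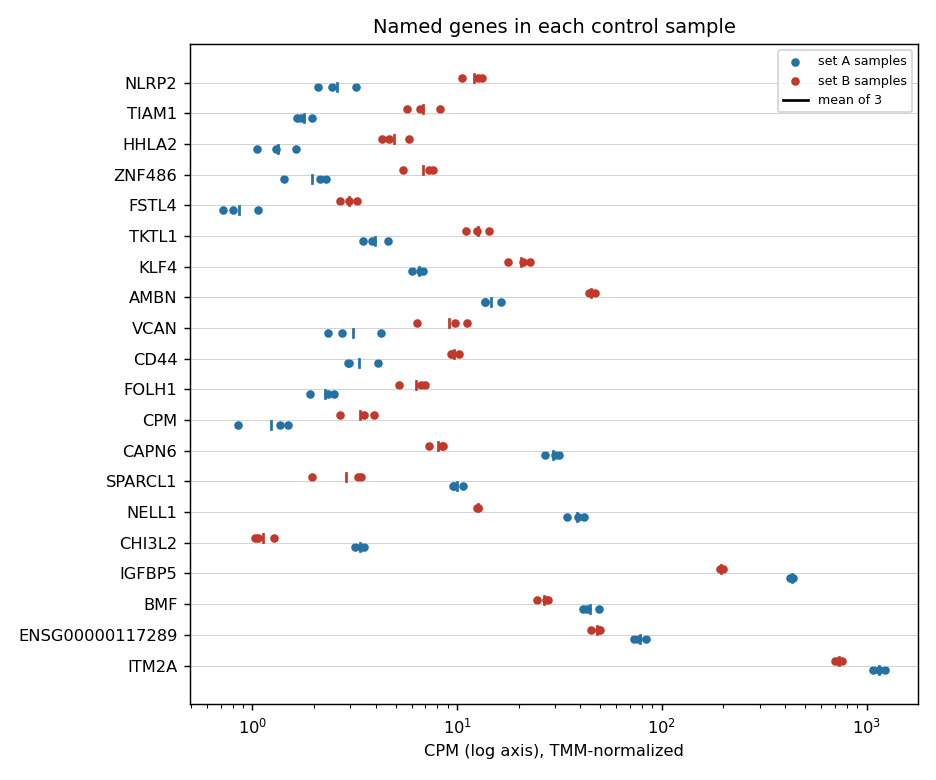
TMM-normalized CPM (horizontal log axis) of the 20 genes named by the rule in each control sample, blue for set A and red for set B, with a short line at the mean of 3. The 12 upper genes lie to the right in set B and the 8 lower genes to the left. Their samples do not overlap between the sets, which the rule required.

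Falls were fewer, and only 8 met the same rule. CAPN6, a calpain that lacks the catalytic cysteine and binds microtubules, was at 30, 26.9 and 31.4 CPM in set A and at 8.48, 8.54 and 7.26 CPM in set B. It fell by 1.88 on the log2 scale (SE 0.14, adjusted p = 0.00183, edgeR). The rule admits only genes without overlap between the sets, so the gap in the other genes is given by the choice. NELL1, a secreted protein of bone formation, was at 39.1, 41.5 and 34.4 CPM in set A and at 12.7, 12.6 and 12.7 CPM in set B (log2 fold change -1.61, SE 0.13, adjusted p = 0.00183, edgeR). IGFBP5, which binds insulin-like growth factors outside the cell, was at 431, 421 and 439 CPM in set A and at 200, 194 and 193 CPM in set B (log2 fold change -1.15, SE 0.10, adjusted p = 0.00183, edgeR). SPARCL1, a matricellular protein also called hevin, was at 9.7, 10.7 and 9.59 CPM in set A and at 3.28, 1.95 and 3.38 CPM in set B (log2 fold change -1.80, SE 0.20, adjusted p = 0.00672, edgeR). CHI3L2, a secreted chitinase-like protein without chitinase activity, fell from 3.39, 3.51 and 3.16 CPM to 1.03, 1.28 and 1.07 CPM. Its log2 fold change was -1.58 (SE 0.19, adjusted p = 0.0111, edgeR).

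The remaining 3 falls were smaller. ITM2A, a membrane protein of cartilage, muscle and T cell development, was at 1077, 1235 and 1150 CPM in set A and at 724, 762 and 702 CPM in set B, a log2 fold change of -0.67 (SE 0.11, adjusted p = 0.0275, edgeR). BMF, a BH3-only protein that promotes apoptosis, was at 49.4, 41.2 and 43.2 CPM in set A and at 24.7, 27.8 and 27.3 CPM in set B, a log2 fold change of -0.76 (SE 0.13, adjusted p = 0.0398, edgeR). The gene with the identifier ENSG00000117289, for which no symbol was found in the tables used, was at 73.4, 84 and 76.7 CPM in set A and at 44.9, 49.8 and 49.2 CPM in set B. Its log2 fold change was -0.71 (SE 0.12, adjusted p = 0.0364, edgeR). In each of the 8 genes the lowest sample of set A lay above the highest of set B, as the rule required.

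Gene lists of pathways and families, chosen with earlier results of these data known, held 12 of these genes. Of 735 list members tested, 12 rose and none fell, 1.63% beside 0.64% of all genes tested, and they came from 9 of the 33 lists. The extracellular matrix list had 3 risen members among 55 tested, and its median log2 fold change was 0.12. These were AMBN, VCAN and LAMC3, a laminin gamma chain of basement membranes that was at 4.75, 3.39 and 3.51 CPM in set A and at 8.41, 8.27 and 9.23 CPM in set B. Of 96 cancer-testis genes, which are normally active only in germ cells, 6 were high enough to be tested and 2 rose. PRAME was at 20.7, 19.5 and 16.4 CPM in set A and at 33.9, 37.7 and 34.1 CPM in set B, and ACTL8, an actin-like protein of the testis, was at 24.2, 21.6 and 18.1 CPM in set A and at 42.8, 43.8 and 39.4 CPM in set B. PRAME belongs to a family of similar genes, which makes its count uncertain. Their log2 fold changes were 0.89 (SE 0.14, adjusted p = 0.0284, edgeR) for PRAME and 0.97 (SE 0.15, adjusted p = 0.0232, edgeR) for ACTL8.

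Developmental signalling genes contributed single members. SFRP1, a secreted inhibitor of WNT signalling, was the only 1 of 40 WNT pathway genes to pass the test, with 18.9, 16.8 and 19.3 CPM in set A and 33.4, 31.7 and 31.8 CPM in set B. IGF2, an imprinted growth factor, was at 2.28, 1.73 and 2.03 CPM in set A and at 4.03, 4.1 and 4.56 CPM in set B, and was 1 of 17 imprinted genes tested. HOXB9, 1 of 26 HOX genes tested, was at 7.29, 6.97 and 6.61 CPM in set A and at 12, 14 and 13.1 CPM in set B. The rises were 0.80 (SE 0.12, adjusted p = 0.0259, edgeR) for SFRP1, 1.06 (SE 0.17, adjusted p = 0.0331, edgeR) for IGF2 and 0.89 (SE 0.13, adjusted p = 0.0231, edgeR) for HOXB9. IGF2 overlaps the INS-IGF2 read-through gene, and reads that fit both cannot be assigned. CHAC1, which degrades glutathione and is induced by the transcription factor ATF4, rose by 1.04 (SE 0.17, adjusted p = 0.0331, edgeR) from 7.42, 6.16 and 5.24 CPM to 13.6, 14.1 and 11.5 CPM. It was the only 1 of 28 ATF4 targets to pass the test, but 23 had a positive log2 fold change and the median was 0.17. DNMT3L, a cofactor of the de novo DNA methyltransferases, was the only 1 of 28 genes for DNA methylation and silencing to pass. It was at 0.78, 0.74 and 0.95 CPM in set A and 2.05, 1.95 and 1.91 CPM in set B (12 to 16 and 29 to 34 reads). Its rise of 1.23 (SE 0.22, adjusted p = 0.0456, edgeR) did not pass in DESeq2 (adjusted p = 0.0692) or in one fit over all 18 samples (adjusted p = 0.0518, edgeR). CNTNAP5, a neural adhesion molecule, rose from 3 to 7 reads per sample to 19 to 36, and KLF4 was the only immediate early gene of 29 to pass.

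In the other 24 lists no member passed the test. No cytoplasmic ribosomal protein gene of 81 passed, but only 8 had a positive log2 fold change and the median was -0.18. No cell cycle gene passed either, of 39 for G1/S (15 positive, median -0.03) and 40 for G2/M (11 positive, median -0.18). No gene passed among 23 of cholesterol synthesis (median 0.18), 34 of glycolysis and hypoxia (median -0.03), 23 p53 targets (median -0.03), 28 interferon-stimulated genes (median 0.06) or 20 ER chaperones (median -0.16). The highest median was that of 18 clustered protocadherins, at 0.44 with 15 of them positive. The lowest was that of 13 replication-dependent histones, at -0.34 with 1 positive. No gene passed among 21 for cohesin and its regulators (median -0.05). The 2 meiotic subunits in that list, REC8 and STAG3, had log2 fold changes of -0.79 (SE 0.20, adjusted p = 0.149, edgeR) and 0.85 (SE 0.50, adjusted p = 0.529, edgeR) at levels near 1 CPM.

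Markers of other cell types did not pass the test in any of the 4 lists. Summed over 20 haematopoietic markers, the level was 138 to 145 CPM in set A and 125 to 128 CPM in set B, with 8 and 10 of the markers at 0 in all 3 samples, among them SPI1, GATA1 and MPO. The largest of them was TAL1 at 72.9 ± 5.6 CPM in set A and 54.4 ± 2.3 in set B (SD, n = 3, adjusted p = 0.198, edgeR). Summed levels were 70.3 to 92.4 CPM in set A and 71.8 to 88.6 in set B for 14 epithelial markers, and 787 to 887 and 762 to 792 CPM for 16 mesenchymal markers, where VIM was at 586 ± 74 and 486 ± 32 CPM. VIM had a log2 fold change of -0.28, whereas 7 of the 10 mesenchymal markers tested had a positive one and their median was 0.14. The epithelial sum was carried by KRT18, at 61.9 ± 10.7 CPM in set A and 51.7 ± 7.2 in set B (log2 fold change -0.27). Of the 7 epithelial markers tested, 5 had a positive log2 fold change, and the median of the 7 was 0.37. For 18 neural markers the summed levels were 720 to 791 and 826 to 896 CPM. The neural sum was carried by SOX2, at 426 ± 28 CPM in set A and 576 ± 46 in set B (SD, n = 3, adjusted p = 0.163, edgeR), while only 2 of the 10 neural markers tested had a positive log2 fold change and their median was -0.24. The haematopoietic and neural sums did not overlap between the sets, in opposite directions, and their part in the results was not tested.

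Chromosome 19 held 12 of the genes past the threshold, 1.32% of its 909 genes tested, and all of them were higher in set B. The share over all chromosomes was 0.64%, and chromosome 21, with 2 of 114 genes, had a higher share of 1.75%. No whole chromosome shifted by much. The median log2 fold change furthest from 0 was -0.07 on chromosome 21, and chromosome 19 had a median of 0.03.

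**Figure D3:**
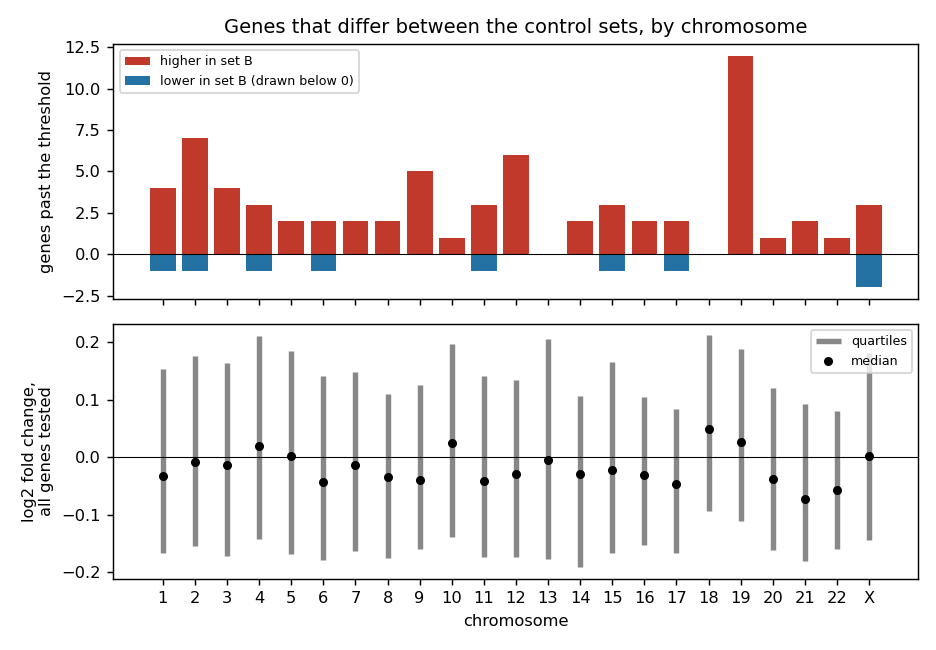
Upper panel, the number of genes past the threshold on each chromosome, red bars for genes higher in set B and blue bars, drawn below 0, for genes lower in set B. Lower panel, the median (black point) and quartiles (grey line) of the log2 fold change over all genes tested on each chromosome. Chromosome 19 has the highest bar, with 12 genes, while its median of 0.03 is close to 0.

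Of these 12 genes 10 encode zinc finger proteins. Chromosome 19 carries large clusters of KRAB zinc finger genes, whose products bind DNA and silence transposable elements and other targets through the co-repressor TRIM28. The group was looked at after the 12 genes were known. Of 209 zinc finger genes tested on the chromosome, 10 were higher in set B and none was lower (4.78%), the median log2 fold change was 0.12 and 138 were positive. Of 242 zinc finger genes on other chromosomes none passed, with a median of -0.03, and of the 700 other genes of chromosome 19 2 passed. At an unadjusted p under 0.05, 35 zinc finger genes of chromosome 19 were higher and 4 lower, beside 10 and 11 for those elsewhere. Zinc finger genes share much of their sequence and ambiguous reads were left out of the counts, so their levels are uncertain.

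The zinc finger genes that rose were low or nearly silent in set A. ZNF667, whose promoter is shown, was at 0.13, 0.25 and 0.18 CPM in set A (2 to 4 reads) and at 1.23, 1.08 and 1.24 CPM in set B (16 to 22 reads), a log2 fold change of 2.61 (SE 0.34, adjusted p = 0.0136, edgeR). ZNF578 was at 0.26, 0.18 and 0.3 CPM in set A and at 1.23, 1.21 and 1.46 CPM in set B, a log2 fold change of 2.35 (SE 0.32, adjusted p = 0.0158, edgeR). These were the lowest of the 10 in set A. ZNF90 and ZNF486 are neighbours, 40.1 kb apart at 20188803 to 20311297 (GRCh37). ZNF486 was at 1.43, 2.28 and 2.14 CPM in set A and at 7.31, 5.44 and 7.6 CPM in set B, and ZNF90 at 0.78, 0.49 and 0.77 CPM in set A and at 1.98, 1.81 and 3.32 CPM in set B. Their log2 fold changes were alike, at 1.78 for ZNF486 and 1.79 for ZNF90 (SE 0.32, adjusted p = 0.0474, edgeR).

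A second group of neighbours, ZIK1, ZNF814, ZSCAN18 and ZNF544, lies between 58089824 and 58788861 (GRCh37) near the end of the long arm. ZIK1 rose from 0.91, 0.74 and 1.25 CPM to 2.73, 2.62 and 2.31 CPM, and ZNF814 from 2.08, 2.34 and 2.8 CPM to 4.78, 4.64 and 5.74 CPM. ZSCAN18 rose from 3.78, 3.33 and 3.57 CPM to 7.25, 6.99 and 6.7 CPM, and ZNF544 from 1.3, 1.48 and 1.67 CPM to 3.14, 3.63 and 2.98 CPM. The 4 log2 fold changes lay between 0.96 and 1.37. ZNF793 and ZNF844, elsewhere on the chromosome, rose by 1.35 (SE 0.23, adjusted p = 0.0354, edgeR) and 1.63 (SE 0.24, adjusted p = 0.0217, edgeR). Over the whole genome, 11 pairs of genes past the threshold lay within 1 Mb of each other. They came from 14 of the 78 genes placed in the annotation, and 7 were pairs of these zinc finger genes. All of these 7 but the pair of ZNF90 and ZNF486 were formed by the 4 genes of the second group. Zinc finger genes of the chromosome lie in clusters and pairs over all genes tested were not counted, so nothing is read from the number.

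**Figure D4:**
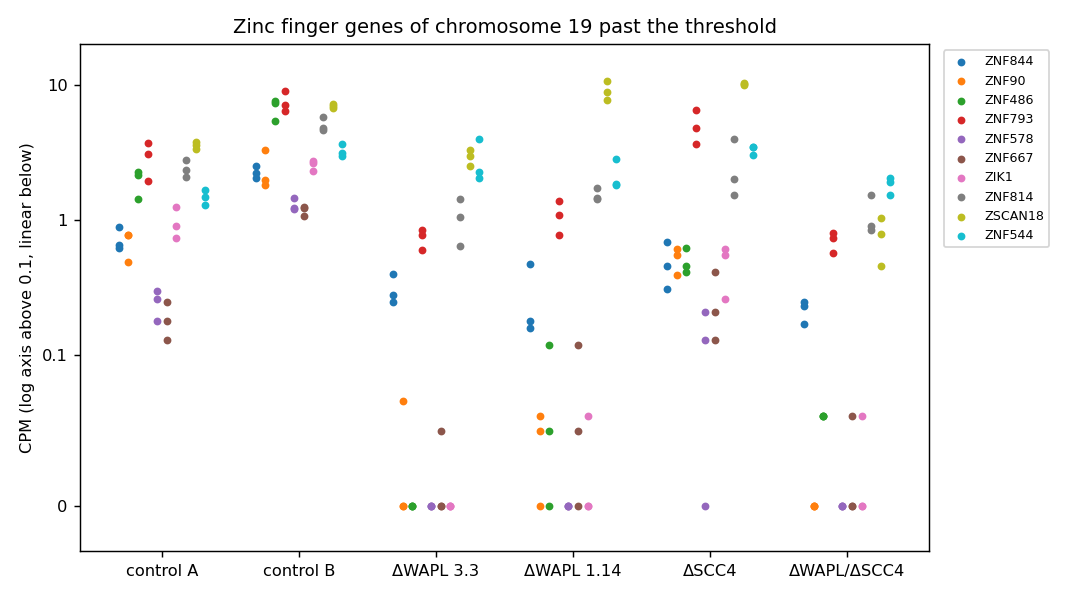
CPM (vertical axis, logarithmic above 0.1 and linear below) of the 10 zinc finger genes of chromosome 19 that were higher in set B, in each of the 18 samples, with 1 colour for each gene. All 10 lie higher in control set B than in set A, and ZNF486, ZNF578 and ZIK1 lie at or near 0 in the ΔWAPL and ΔWAPL/ΔSCC4 cells.

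The knockout cells show where the same genes vary between other populations of HAP1 cells. Clone 1.14 and clone 3.3, both without WAPL, were compared as a pair that shares no sample with the controls. Of 12476 genes tested, 3101 differed between the clones (24.9%), 1654 higher and 1447 lower in clone 1.14. The number was 1692 in one fit over all 18 samples, which does not rest on the small spread within clone 1.14 alone. Of the 80 genes that differed between the control sets, 52 were high enough in the clones to be tested. Their clone difference had the sign of the control difference in 29 (55.8%), and it passed the test with the same sign in 13 and with the opposite sign in 11. Over all genes tested in both comparisons the sign was the same in 8570 of 12281 (69.8%), with Spearman's rho of 0.477 across genes. Across the 52 genes rho was -0.01. The share of the same sign moved with the fit, to 67.4% of 408 genes in one fit over all 18 samples, 62.3% of 130 in DESeq2 and 75.6% of 82 without replicate 3 of set A, so no difference from all genes is read from it. These counts are descriptions, since genes are not independent replicates, and clone, culture history and sample set cannot be told apart. In the order of the samples, clone 3.3 comes after control set A and clone 1.14 after control set B. The labels do not say whether each clone was handled with that set, so a set effect shared by controls and clones was not tested.

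Genes that differed in both comparisons went either way. VCAN was higher in set B and higher in clone 1.14, with mean CPM of 2.9 in clone 3.3 and 15.8 in clone 1.14 (log2 fold change 2.46, adjusted p = 9.72e-08, edgeR). HOXB9 and IGF2 were also higher in both, with clone differences of 0.91 (adjusted p = 0.00509, edgeR) and 0.78 (adjusted p = 0.00829, edgeR). CAPN6 and IGFBP5 fell in set B but were higher in clone 1.14, at 4.81 and 13.1 CPM for CAPN6 and at 32 and 81.8 CPM for IGFBP5 in clones 3.3 and 1.14. CD44, which rose in set B, had no read in any sample of clone 1.14, and clone 3.3, at a mean of 1.31 CPM, was at least 7.61-fold higher than the floor of 3 reads per library. The difference between both differences was itself tested, and 339 of 12786 genes passed (2.65%), among them 38 of the 80. The tested value contains the control difference by which the 80 genes were chosen, so nothing is read from their share.

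**Figure D5:**
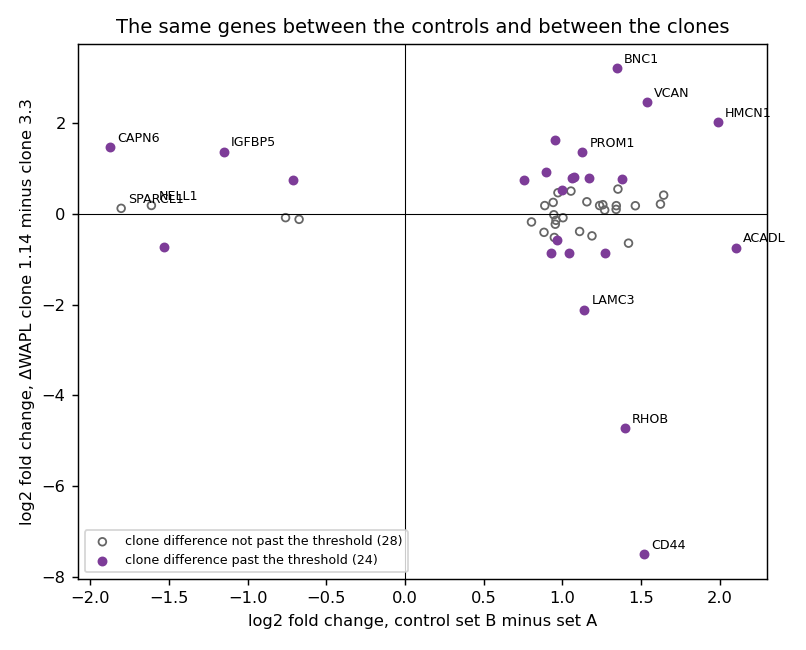
The log2 fold change of clone 1.14 over clone 3.3 (vertical axis) against that of control set B over set A (horizontal axis) for the 52 genes that differed between the control sets and were tested in the clones. Filled points are the 24 genes whose clone difference passed an adjusted p of 0.05 in edgeR and open points the other 28, and the points spread over all 4 quadrants. The fitted value of CD44 depends on the prior count, since clone 1.14 had no reads.

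Many genes that rose were close to silent in the clones. Of the 70 risen genes, 23 had a mean under 0.5 CPM in both ΔWAPL clones. With 1 of the fallen genes these made 24 of 80, beside 1.17% of all genes tested. Risen genes were mostly of low expression, with 19 of the 70 under 1 CPM in set A, beside 3.89% of all genes tested. The share of all genes is therefore no like baseline, and nothing is read from the contrast. The median over the 70 genes of the mean CPM was 2.18 in set A, 5.4 in set B, 1.59 in clone 3.3, 1.39 in clone 1.14, 2.69 in ΔSCC4 and 1.91 in ΔWAPL/ΔSCC4 cells. Control set B thus had the highest median of the 6 groups. For the 10 fallen genes it was 33.9 in set A, 10.4 in set B, 13.3 in clone 3.3, 14.8 in clone 1.14, 5.57 in ΔSCC4 and 10.9 in ΔWAPL/ΔSCC4 cells, so that set A was the highest. Since the genes were chosen by the control difference, the order of set A and set B is fixed by the choice. Single genes departed from these medians. NLRP2 had no read in clone 3.3 and a mean of 0.67 CPM in ΔSCC4 cells but reached 15.8 CPM in ΔWAPL/ΔSCC4 cells, above both control sets. TKTL1 was at most 0.72 CPM on average in the knockout groups and had no read in clone 1.14, where control set B was at least 72.9-fold higher than the floor. AMBN was at 0.431, 0.273 and 1.18 CPM in clones 3.3 and 1.14 and in ΔWAPL/ΔSCC4 cells, while ΔSCC4 cells had 33.4 CPM, between the control sets.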

How the data were processed

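Polyadenylated RNA of 18 HAP1 samples was sequenced with a strand-specific kit. The authors aligned the reads to hg19 with TopHat2 (2.0.9 in the submitters' processing notes) and deposited HTSeq read counts per gene, without normalization, in which reads that fit several places are not counted (14.6 to 16.1% in the controls). Rows that name no gene, such as reads outside genes, were left out. Of 20329 genes, 96.6% were found in the GRCh37 annotation and 94.3% had a symbol. The members and the gene lists were chosen with earlier results of these data known. The 3 control B and 3 control A samples were tested with edgeR 4.0.16 (R 4.3.3, TMM, filterByExpr defaults, quasi-likelihood test, Benjamini-Hochberg adjusted p of 0.05), and so were the 3 samples of each ΔWAPL clone and, over these 12 samples, the difference between both differences. CPM and log2 values (prior count of 2) are computed from the counts. Standard errors were obtained by dividing the size of the log2 fold change by the root of F, which can understate them for low counts. An exact permutation test of 3 against 3 samples cannot give a p under 0.1, so single values were not tested alone. Named genes are the 12 largest rises and 12 largest falls past the threshold whose average log2 CPM reached 1, with no overlap between the samples, of which 8 falls existed, plus list members past the threshold, WAPL and MAU2. Others named were chosen after their values were seen. Alternatives were leaving out each replicate, a block for the replicate number, DESeq2 1.42.0, edgeR with size factors of DESeq2, a joint fit of the 18 samples, and filters of none or of 10 counts per sample. The GC slope covariate, and leaving out replicates with it and with DESeq2, were added after seeing the data. Replicates of a set differed by more than sampling noise (chi-square per degree of freedom 8.81 to 52), so each counted once. Precision is set by the read counts given. Promoters came from RefSeq windows of 300 bases in GRCh38.p14, matched by symbol. Mitochondrially encoded genes were not analysed here.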

Additional observations from a re-analysis of the deposited data

Results flagged for a closer look

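For 18 of the named genes the difference between the ΔWAPL clones (1.14 minus 3.3) was not equal to the difference between the control sets (B minus A) in edgeR's test of the difference itself at an adjusted p of 0.05, which 2.65% of all genes passed. Values are the clone difference minus the control difference on the log2 scale. They were negative for genes that rose in control set B, at -3.83 for TIAM1, -5.97 for TKTL1, -1.26 for KLF4, -2.35 for AMBN, -8.99 for CD44, -1.31 for FOLH1, -3.28 for LAMC3, -1.01 for SFRP1, -1.58 for ACTL8, -1.94 for CHAC1 and -0.73 for PRAME. They were positive for genes that fell in set B, at 3.31 for CAPN6, 1.90 for SPARCL1, 1.77 for NELL1, 2.49 for IGFBP5, 0.65 for BMF, 1.44 for ENSG00000117289 and 0.53 for ITM2A. These genes were chosen by their control difference, on which the tested value also depends. CD44 and TKTL1 had no reads in clone 1.14, so their values depend on the prior count and are no bound. TIAM1 had 2 to 8 reads per sample in clone 3.3 and 0 to 2 in clone 1.14, and AMBN 3 to 12 and 3 to 7. TIAM1, AMBN and TKTL1 were too low to be tested between the clones, so their values are imprecise. No group had 4 or more samples, so no sample was tested for standing apart.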

How the results depend on the processing

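Counts of genes moved with the processing. The 80 genes between the control sets kept their sign in all control fits that tested them, which their lack of overlap made nearly certain. Between the sets DESeq2 called 168 genes, no filter 127, one fit over all 18 samples 408 and the GC slope covariate 1335, and of the 80 genes 78, 80, 79 and 80 were among them. With DESeq2's size factors in edgeR VCAN (adjusted p = 0.0597), CPM (adjusted p = 0.0588) and DNMT3L (adjusted p = 0.0508) did not pass. The counts were 68 with these size factors and 64 with at least 10 counts in every sample. Leaving out replicates gave 0 to 107 genes in edgeR. Without A1, A2, A3, B1, B2 and B3 in turn, DESeq2 gave 134, 52, 475, 69, 82 and 203, and the GC slope covariate 885, 11, 942, 41, 1008 and 1827. List members past the threshold were 12, and 21 in DESeq2, 52 in one fit over all 18 samples, 116 with the GC slope covariate and 0 to 13 when replicates were left out in edgeR. In the same order of replicates they were 24, 10, 40, 12, 14 and 26 in DESeq2 and 99, 3, 87, 8, 89 and 130 with that covariate. The genes with the same sign in the clones were 29 of 52 (55.8%), and 275 of 408 (67.4%) in one fit over all 18 samples, 81 of 130 (62.3%) in DESeq2 and 0 to 62 when replicates were left out, with 2 of 6 (33.3%) without A1 and 62 of 82 (75.6%) without A3. The clone comparison gave 1692 genes in one fit over all 18 samples. When replicates were left out it gave 1040 to 5180, with 1149 and 1040 without replicates 1 and 3 of clone 1.14 and 5180 and 1862 without replicates 1 and 2 of clone 3.3. The test of both differences gave 211 with at least 10 counts in every sample and 218 to 372 when replicates were left out. The median of chromosome 21 ranged from -0.0940 to -0.0337 without single replicates. Control samples with the same number deviated together in 1 of 3 pairs (correlations of -0.0091, -0.0198 and 0.516), which is short of all 3, so the numbers were not taken to pair the control sets; the replicate block gave 162 genes and 19 list members, all 80 genes among the former. In the clones the block gave 2971 genes and for both differences 252. Of the named genes' values without single replicates, 429 kept their side of the threshold, 126 lost it, 2 gained it and none changed sign. Low read counts limit the precision of the genes under 1 CPM, 19 of the 70 that rose.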

Other observations

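Further genes passed the test between the control sets but lie outside the naming rule, and those given here were chosen after their values were seen. OLIG3, a transcription factor of the developing spinal cord, fell from 2.28 ± 0.23 to 0.545 ± 0.074 CPM (SD, n = 3, log2 fold change -2.05, adjusted p = 0.00981, edgeR). OMG, the oligodendrocyte myelin glycoprotein, fell from 2.32 ± 0.22 to 0.809 ± 0.13 CPM (log2 fold change -1.53, adjusted p = 0.0231, edgeR). ALDH1A2, which makes retinoic acid, rose from 13 ± 0.44 to 33.1 ± 0.44 CPM (log2 fold change 1.34, adjusted p = 0.00183, edgeR), and PROM1, a membrane protein of stem and progenitor cells, rose from 6.22 ± 0.87 to 13.7 ± 0.87 CPM (log2 fold change 1.13, adjusted p = 0.0129, edgeR). PROM1 was also higher in clone 1.14, at 40.4 CPM, than in clone 3.3, at 15.9 CPM.

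CTCFL, the testis paralogue of CTCF, went from 3 to 7 reads per sample to 19 to 31, a log2 fold change of 2.12 (adjusted p = 0.0246, edgeR). MEIOB, which binds single-stranded DNA in meiotic recombination, rose from 2.38 ± 0.5 to 6.49 ± 0.49 CPM (log2 fold change 1.43, adjusted p = 0.0129, edgeR). The largest fitted rise was that of PRKG2, a cyclic GMP-dependent kinase, with 1 to 2 reads per sample in set A and 10 to 15 in set B (log2 fold change 3.19, adjusted p = 0.0217, edgeR). RHOB, a small GTPase of endosomes, rose from 1.57 ± 0.33 to 4.19 ± 0.44 CPM between the control sets (log2 fold change 1.40, adjusted p = 0.0217, edgeR) and went the other way in the clones, from 2.21 CPM in clone 3.3 to 0.077 CPM in clone 1.14. CHFR, a mitotic checkpoint ligase, rose from 1.35 ± 0.19 to 3.35 ± 0.32 CPM (log2 fold change 1.30, adjusted p = 0.0232, edgeR).

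The receptor genes NGFR, EPHB1 and NRP2 are further single examples. NGFR, the low-affinity neurotrophin receptor, rose from 4.44 ± 0.56 to 8.64 ± 0.63 CPM (log2 fold change 0.95, adjusted p = 0.0311, edgeR). EPHB1, an Eph receptor kinase, rose from 2.46 ± 0.27 to 5.58 ± 0.93 CPM (log2 fold change 1.17, adjusted p = 0.0275, edgeR), and NRP2, a co-receptor of semaphorins and VEGF, from 1.8 ± 0.18 to 4.87 ± 0.55 CPM (log2 fold change 1.42, adjusted p = 0.0129, edgeR). EPHB1 was higher again in the ΔWAPL cells, at 6.6 CPM in clone 3.3 and 11.3 CPM in clone 1.14, whereas NRP2 was at 1.84 and 1.15 CPM there.

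SYK, a kinase of immune receptor signalling, rose from 2.11 ± 0.15 to 5.09 ± 0.46 CPM (log2 fold change 1.26, adjusted p = 0.0129, edgeR). ITGAL, the alpha chain of the leukocyte integrin LFA-1, rose from 0.417 ± 0.11 to 1.54 ± 0.41 CPM (log2 fold change 1.88, adjusted p = 0.0447, edgeR). GFI1, a transcriptional repressor that acts in blood cell development, rose from 2.81 ± 0.18 to 5.25 ± 0.33 CPM (log2 fold change 0.88, adjusted p = 0.04, edgeR). ITGAL and GFI1 passed in none of the fits without a control sample, and SYK in 4 of 6. CCND2, a cyclin of the G1 phase, rose from 18.8 ± 4.2 to 37.8 ± 1.1 CPM (log2 fold change 1.00, adjusted p = 0.0376, edgeR). HRK, a BH3-only protein like BMF, rose from 1.68 ± 0.14 to 3.4 ± 0.14 CPM (log2 fold change 1.00, adjusted p = 0.0398, edgeR), while BMF fell. Of the 6 fits without a control sample, HRK passed in none, BMF in 1 and CCND2 in 2.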
